A study of Mus musculus with 2 samples.

Results

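MicroRNAs (miRNAs) are short RNAs that repress messenger RNAs carrying a match to their seed, bases 2 to 8 of the mature strand. The genes described here are 5 vascular miRNA genes of the mouse, out of 2202 counted: Mir126a and Mir126b, which overlap on opposite strands at Egfl7, and Mir143, Mir145a and Mir145b. They were chosen by name from their known cell types and not by their counts, though earlier results of these data were known. They were measured in cerebral cortex tissue of wild-type B6NCrl mice, in 2 small RNA libraries labelled biological replicates 1 and 2 of 1 control group. The labels describe the tissue as female in one field and give sex and age as not collected in others, and no agent or altered allele is listed for it. Both libraries cite the same donor record, so separate animals are not stated and the spread between the libraries may be technical.

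The miR-126 hairpin sits within Egfl7, a gene for a protein secreted by endothelial cells, and miR-126 is abundant in the cells that line blood vessels. There it is known for repressing inhibitors of signalling by vascular endothelial growth factor, which affects vessel integrity and sprouting. miR-143 and miR-145 come from 1 locus that is active in smooth muscle cells and pericytes, the mural cells wrapped around vessels, and they are known for keeping smooth muscle in its contractile state. In cortex, neurons and glia far outnumber vascular cells.

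Mir126a (ENSMUSG00000065540.1) lies at chr2:26591357-26591429 on the plus strand of mm10, the same strand as Egfl7. Of the 9 annotated Egfl7 transcripts that span it, 8 place it in an intron and 1, a retained-intron transcript, places it in an exon. It also lies in an intron of Gm20532, an annotated gene that overlaps Egfl7 on that strand. Mir126b (ENSMUSG00000105799.1), at chr2:26591363-26591420 on the minus strand, is contained whole in the Mir126a interval. The 2 hairpins are therefore the same 58 bases of genome read in opposite directions, and Mir126a extends beyond Mir126b by 6 bases on one side and 9 on the other. Their RefSeq sequences (GRCm38.p6) are shown because the counts at this locus turn on which strand a read came from. Capitals mark the annotated mature miR-126a-3p in the first and the mature miR-126b-5p and miR-126b-3p in the second.
Mir126a hairpin: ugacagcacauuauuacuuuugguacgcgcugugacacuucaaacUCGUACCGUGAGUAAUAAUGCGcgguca
Mir126b hairpin: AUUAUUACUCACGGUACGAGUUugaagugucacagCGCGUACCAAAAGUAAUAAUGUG

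The mature strands are shown next with the seed in capitals, since the seed sets which messenger RNAs each could pair with.
miR-126a-3p: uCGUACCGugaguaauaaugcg
miR-126b-5p: aUUAUUACucacgguacgaguu
miR-126b-3p: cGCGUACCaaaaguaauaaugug
No seed was shared among these 3. The RefSeq sequences held no mature miR-126a-5p, so the seed of that arm was not compared. Each of the 3 seeds belonged to 1 mature name of the 1679 in the RefSeq table, so none of them groups with another miRNA there. The genome intervals of miR-126a-3p and miR-126b-5p share 19 bases on opposite strands. RefSeq sequences were matched for 2 of the 5 genes.

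Mir143 (ENSMUSG00000065445.3) lies at chr18:61649196-61649258 and Mir145a (ENSMUSG00000065592.2) at chr18:61647825-61647894, both on the minus strand. A gap of 1301 bases separates them, and the annotation places no gene over either. The lincRNA gene Carmn, which is active in smooth muscle, ends 366 bases from Mir143 on the same strand. Another lincRNA gene, Bvht, known from heart muscle differentiation, lies 352 bases from Mir145a on the other strand. Mir145b (ENSMUSG00000098366.1) is annotated at chr18:69022199-69022273, 7.37 Mb from Mir143. It is thus a separate locus, although its name groups it with Mir145a. The longest run of bases shared by the Mir145a and Mir145b precursors was 17 nt, and for the other 3 genes the longest run shared with any other annotated miRNA precursor was 11 or 12 nt.

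Replicate 1 held 4429633 sense counts over all miRNA genes and replicate 2 held 6985784, where a sense count is a read on the gene's own strand. Levels are given as CPM, the count of a gene scaled to these totals, so that a single read equals 0.226 CPM in the first library and 0.143 CPM in the second. Reads that matched several loci, 43.9% and 47.9% of all reads, entered no gene's count. A count of 0 allows up to 3 counts, or 0.677 CPM in replicate 1 and 0.429 CPM in replicate 2. Intervals and this limit cover counting error within 1 library only. The reads carry no molecular identifiers, so copies made in amplification cannot be told apart and the intervals may be too narrow. Detection required at least 2 CPM in each library, and 438 of 2202 genes met it.

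Mir126a and Mir143 were present at nearly the same mean level and Mir145a at a lower one, while Mir126b and Mir145b were at the bottom of the range. The 5 genes held 18987 counts in replicate 1, or 0.429% (95% Wilson interval 0.423 to 0.435), and 37918 in replicate 2, or 0.543% (0.537 to 0.548). The mean share was 0.486% ± 0.0807 (SD, n = 2). In replicate 1, Mir143 supplied 51.7% of the counts of the 5 genes and Mir126a 38.3%. In replicate 2 the order was the other way round, with 38.0% from Mir143 and 54.3% from Mir126a. Mir145a supplied 7.69% in replicate 2 and the remainder in replicate 1. Fewer vascular cells and less of these RNAs per cell cannot be told apart in tissue libraries.

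**Figure D1:**
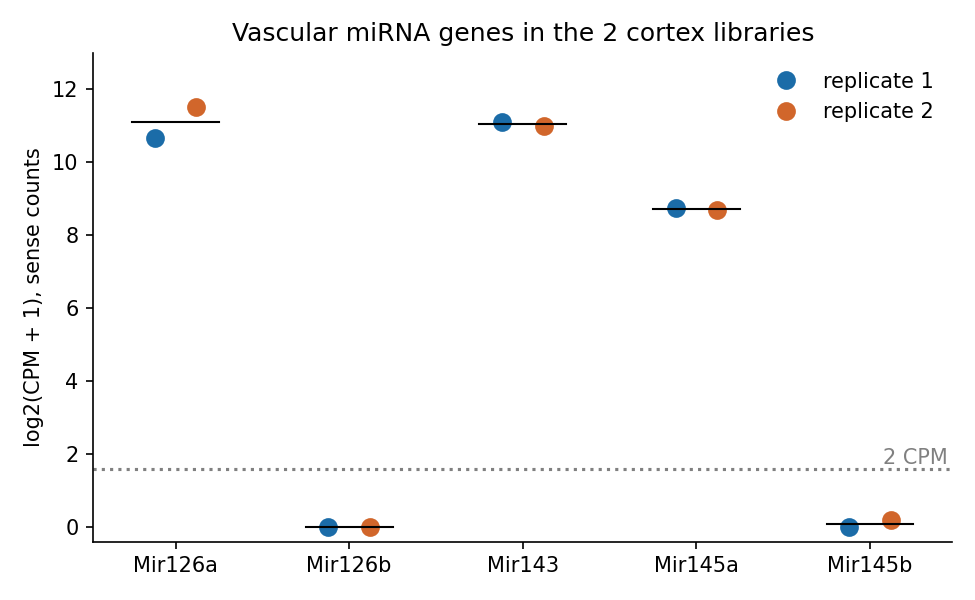
Sense level of each vascular miRNA gene as log2(CPM + 1), with 1 point per library and a bar at the mean of the 2 points. Mir126a, Mir143 and Mir145a lie far above the dotted line at 2 CPM, Mir126b and Mir145b lie at or near 0, and the libraries differ most for Mir126a.

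Mir126a, the endothelial gene, had 7270 counts in replicate 1 and 20591 in replicate 2. These were 1641 CPM (95% Wilson interval 1604 to 1679) and 2948 CPM (2908 to 2988), with a mean of 2294 ± 924 CPM (SD, n = 2). Replicate 2 was the higher library, and the counting intervals did not overlap. By sense counts Mir126a ranked 79 of the 2202 genes in replicate 1 and 50 in replicate 2.

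Mir143, the mural gene of the highest count, had 9812 and 14411 counts. These were 2215 CPM (2172 to 2259) and 2063 CPM (2030 to 2097), with a mean of 2139 ± 108 CPM (SD, n = 2). It ranked 66 and 65. By mean CPM Mir126a was at rank 63 and Mir143 at rank 64, neighbours in the order whose levels did not differ beyond the spread between libraries.

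Mir145a had 1905 and 2915 counts, which were 430.1 CPM (411.2 to 449.8) and 417.3 CPM (402.4 to 432.7). Its mean was 423.7 ± 9.04 CPM (SD, n = 2), at rank 132 in replicate 1 and 131 in replicate 2. The values of Mir145a lay below those of Mir143 and Mir126a in both libraries. For comparison, the median over the 438 detected genes was a mean of 57.8 CPM, far below these 3 genes.

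Mir126b had 0 sense counts in both libraries, so its level was below the limits given above. Against that limit of 3 counts per library, Mir126a was at least 2423-fold higher in replicate 1 and at least 6864-fold higher in replicate 2. Mir145b had 0 counts in replicate 1 and 1 in replicate 2 (0.1431 CPM, 95% Wilson interval 0.02527 to 0.8109). At this depth neither was detectable above the minimum, and reads that could be placed at several loci are missing from both.

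The deposited tables also hold a column for the opposite strand and a column in which strand was not used, and the 2 loci behaved differently there. Mir126b had 7254 opposite-strand counts in replicate 1 and 20580 in replicate 2. Mir126a had 16 and 11 sense counts more than that, and 16 and 11 are also all that the either-strand column left it. The reads at the locus were thus on the strand of Mir126a and Egfl7, and without strand nearly all of them overlapped both genes and were credited to neither. The either-strand column kept 0.22% of the Mir126a sense counts in replicate 1 and 0.0534% in replicate 2. The reads lost at this locus made up 3.33% and 5.23% of the reads that the either-strand counting set aside as ambiguous.

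Mir143 and Mir145a had the same counts in the either-strand and sense columns, and 0 opposite-strand counts. The same was true of 412 detected genes in that they lost no count without strand. Mir126a was 1 of 26 detected genes, 5.94%, that lost over 90% of their sense counts, and ranked 8 among those 26 by mean CPM. In the either-strand column the 5 genes together held 0.279% of counts in replicate 1 and 0.263% in replicate 2, and the higher share in replicate 2 seen with sense counts was gone.

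**Figure D2:**
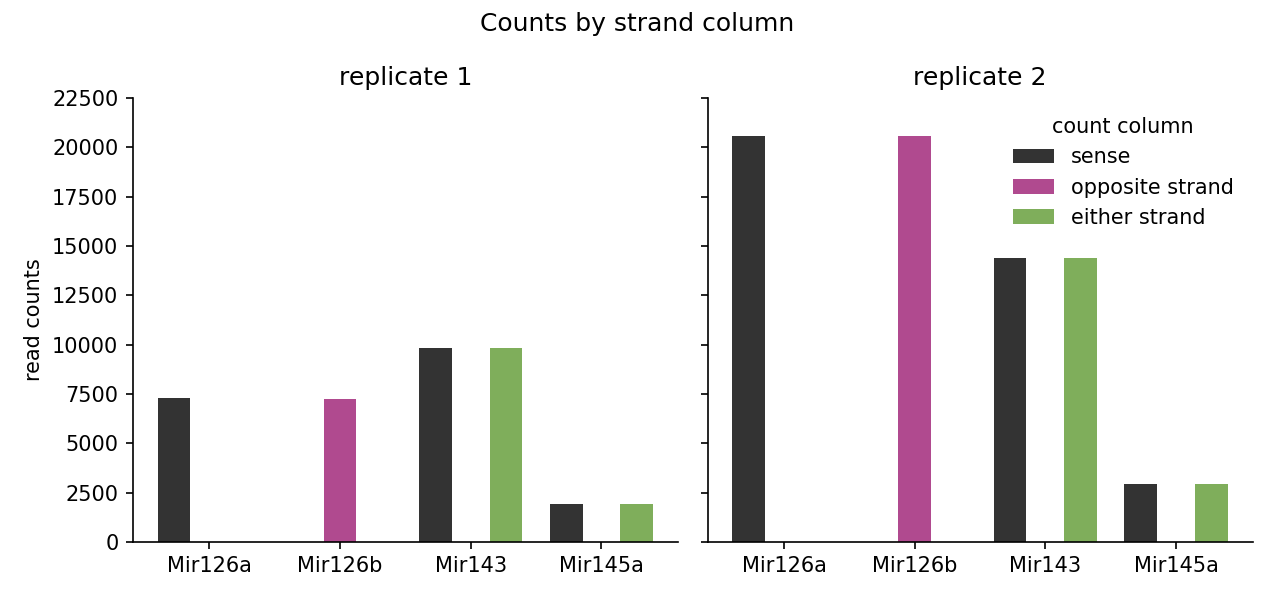
Read counts of 4 of the genes in the 3 columns of each deposited table (sense, opposite strand, either strand), with 1 panel per library. The Mir126a sense bar and the Mir126b opposite-strand bar have nearly the same height and neither gene has a visible either-strand bar, while the sense and either-strand bars of Mir143 and of Mir145a are equal.

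The libraries were then compared gene by gene. An exact two-sided binomial test was run on the 438 detected genes after TMM scaling (trimmed mean of M values, which matches libraries on the bulk of their genes), and p-values were adjusted by Benjamini-Hochberg over all 438. The test sets 1 library against another beside their counting error and says nothing of conditions. A call needed a 2-fold difference or more and an adjusted p below 0.05, and 18.0% of detected genes had both. Of the 5 genes 3 were tested and 0 were called. With no minimum ratio, 63.9% of detected genes and 1 of these 3 had an adjusted p below 0.05, and 1 of the 3 had an unadjusted p below 0.05. At a ratio of 1.5 the test called 39.0% of detected genes and 1 of these 3, Mir126a. At that ratio 18.3% of detected genes were called toward replicate 2, as Mir126a was, and 20.8% toward replicate 1.

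Mir126a was higher in replicate 2 by a log2 ratio of 0.97 (exact 95% counting interval 0.93 to 1.01), or 1.96-fold. That ratio or a higher one was found in 44 of the 438 detected genes, and the median absolute log2 ratio over detected genes was 0.5. The value lies at the limit for a call. It reached a call with DESeq2 size factors (1.00), when 17.8% of genes tested were called, and with no filter on low counts (1.07), when 11.4% were.

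Mir143 had a log2 ratio of 0.02 (-0.01 to 0.06, adjusted p = 0.303 in the exact binomial test). For Mir145a it was 0.08, with an upper bound of 0.17 and an adjusted p = 0.0836 in the same exact test. These 2 ratios were among the smallest of the detected genes, at places 433 and 394 of 438 when ordered from the largest absolute ratio down. Their sign depended on the scaling. Library totals put the median of all detected genes at -0.16 in place of -0.03, and the 2 ratios were then -0.10 and -0.04. Whether the counting intervals included 0 also depended on the setting. With DESeq2 size factors they were 0.02 to 0.09 for Mir143 and 0.03 to 0.2 for Mir145a. With no filter on low counts they were 0.08 to 0.16 and 0.1 to 0.26. With library totals they were -0.14 to -0.07 for Mir143 and -0.13 to 0.04 for Mir145a. With a trend on GC content removed (given below) they were 0.07 to 0.15 and -0.16 to 0.01. The intervals of both genes included 0 with the deeper library thinned and in the either-strand column.

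**Figure D3:**
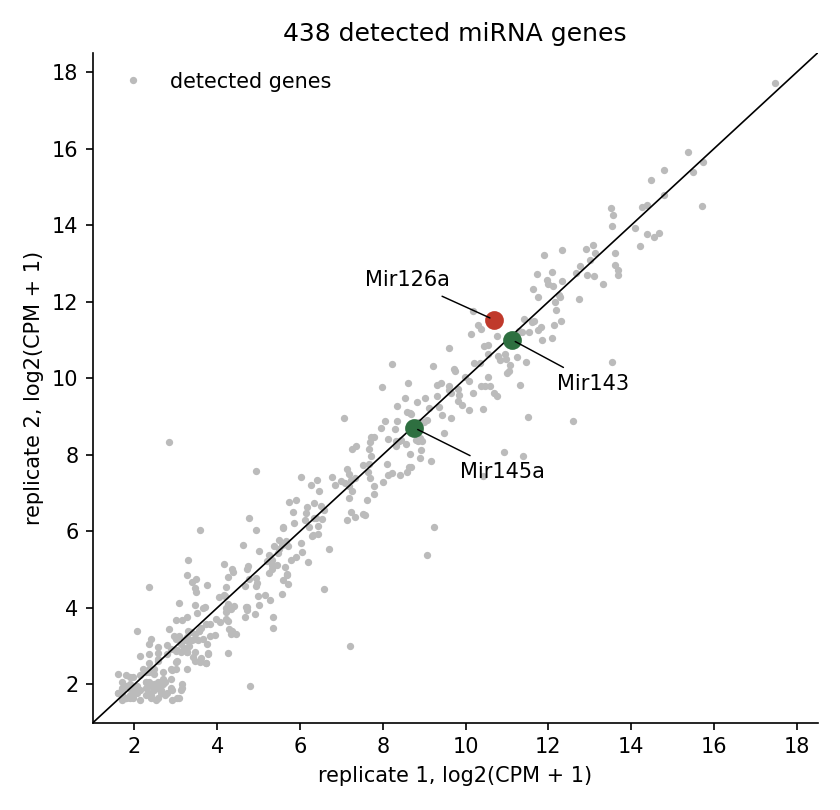
Levels of the 438 detected miRNA genes in replicate 1 (x axis) and replicate 2 (y axis), both as log2(CPM + 1), with the line of equal level. Mir126a (red) lies above the line and Mir143 and Mir145a (green) lie close to it.

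Ratios of 2 genes within 1 library do not depend on the scaling between libraries. There were 0.741 Mir126a counts for each Mir143 count in replicate 1 (exact 95% interval 0.719 to 0.764) and 1.43 in replicate 2 (1.40 to 1.46). The ratio in replicate 2 was 1.93 times that in replicate 1 (exact interval 1.86 to 2.00). The endothelial gene was thus below the mural gene in 1 library and above it in the other.

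Against Mir145a, Mir126a stood at 3.82 counts for each count in replicate 1 and 7.06 in replicate 2, a change of 1.85 times (1.74 to 1.97). Between the neighbours Mir143 and Mir145a the ratio was 5.15 (4.90 to 5.41) in replicate 1 and 4.94 (4.75 to 5.15) in replicate 2. The second was 0.96 times the first, with an interval of 0.901 to 1.02 that includes 1. The mural pair therefore kept its proportion within counting error while Mir126a shifted against both of its genes.

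The log2 ratios of Mir143 and Mir145a between the libraries were 0.06 apart. Pairs were formed of detected miRNA genes next to each other on 1 strand, so undetected miRNA genes can lie between them. Among 48 such pairs, at most 10 kb apart and with each gene at a mean CPM of at least 100, the median distance was 0.76 and the largest 2.08. The Mir143 and Mir145a pair was the third closest. These pairs share libraries and some share a gene, so this is a description and no test was made.

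**Figure D4:**
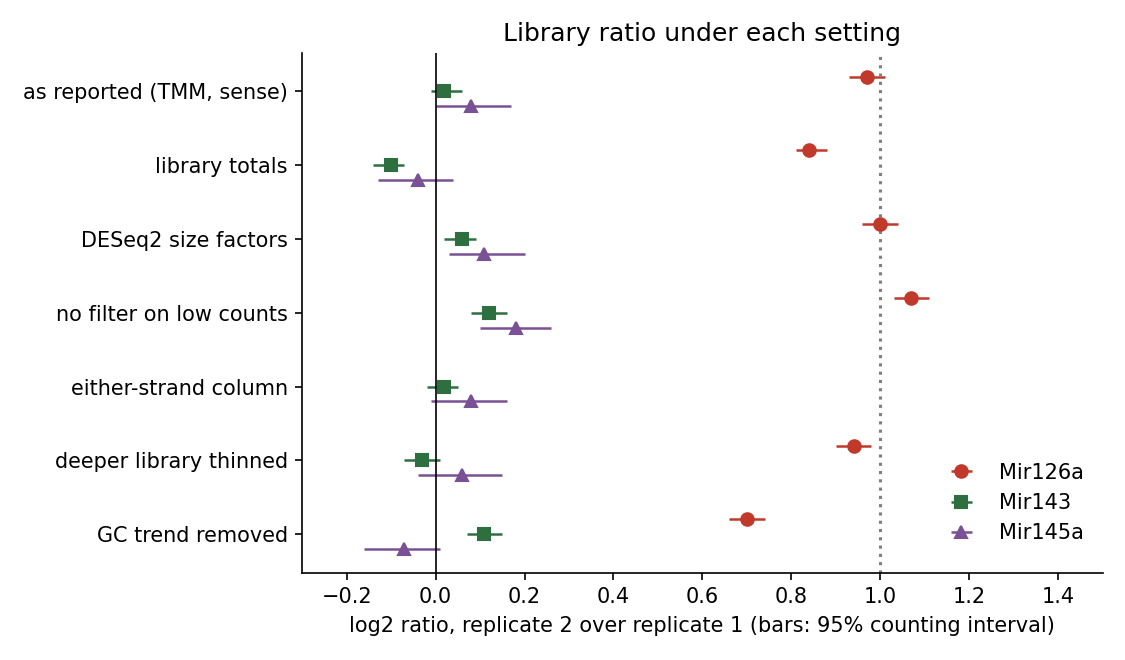
Log2 ratio of replicate 2 over replicate 1 for Mir126a, Mir143 and Mir145a as reported and under each other setting, with exact 95% counting intervals as bars. The dotted line at 1 is a ratio of 2. Mir126a runs from 0.70 to 1.07, Mir143 and Mir145a lie on both sides of 0 and no farther from it than 0.18, and Mir126a has no point for the either-strand column, where it was not detected.

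Other measures moved between the libraries as well, and are set beside the Mir126a ratio here. Choroid plexus and ependyma markers were higher in replicate 2 for 4 of 5 genes at a ratio of 2, against 9.36% of all detected genes. Their levels summed to 1173 and 2471 CPM in replicates 1 and 2. Epithelium markers were higher in replicate 1 for 6 of 7 at that ratio, against 8.68% of all detected genes, with sums of 12840 and 2060 CPM. Of 7 listed neuron markers 4 were tested, without the Mir124a copies, which missed the minimum. Reads of those numbered copies can be placed at several loci, so their low counts do not show that this RNA was scarce. Of the 4 tested neuron markers and of 3 oligodendrocyte markers, 0 were called at a ratio of 2, against 18.0% of all detected genes. Too few were tested to set 0 calls apart from that share. At a ratio of 1.5 the neuron gene Mir132 was called toward replicate 2, as 18.3% of detected genes were. Red blood cell markers summed to 14.0 and 21.04 CPM, with Mir451a at 8 and 75 counts, Mir144 at 3 and 0, and Mir486, the 1 of them that was tested, at 48 and 67 (log2 ratio -0.06, no call). The Mir126a precursor had a GC content of 45.2%, against a median of 53.2% over detected genes, 55.6% for Mir143 and 48.6% for Mir145a. Over the detected genes the log2 ratio fell by 0.35 for each 10 percentage points of GC, and with this trend removed Mir126a had 0.70 (0.66 to 0.74), Mir143 0.11 and Mir145a -0.07. The labels cite a different adapter trimming document for each library, so trimming and replicate cannot be told apart. The part of the cell type markers in the Mir126a ratio was not tested.

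Other miRNAs known from endothelium were present beside Mir126a. All 19 listed genes were matched, 1 of them through a synonym, and 16 were tested. At a ratio of 2, calls toward replicate 2 numbered 2, against 9.36% of all detected genes, and calls toward replicate 1 numbered 1, against 8.68%. Their median log2 ratio was 0.19, against -0.03 over all detected genes. Mir221, which with Mir222 represses the receptor gene Kit, was the highest of them, with 8258 and 8773 CPM in replicates 1 and 2. Its log2 ratio was 0.21. Mir100, which represses the kinase gene Mtor, had 3368 and 6807 CPM and was called at 1.14. Mir222, the partner of Mir221, had 4338 and 2139 CPM, a log2 ratio of -0.89 with no call. The other call toward replicate 2 was that of Mir31, at 1257 and 2658 CPM (1.21). The single call toward replicate 1 was that of Mir497, listed as Mir497a, at 1740 and 734.8 CPM (-1.12). The 3 leading genes of this list thus did not share a direction, and each of them is also expressed outside endothelium.

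Of 11 listed genes of mural cells, smooth muscle and perivascular fibroblasts, 4 were tested. At a ratio of 2, calls numbered 2 toward replicate 2 and 1 toward replicate 1, against 9.36% and 8.68% of all detected genes. The median log2 ratio was 0.69, against -0.03. Mir140, best known from cartilage, had 1171 and 3433 CPM and was called at 1.68. Mir490, at 445.9 and 332.0 CPM, was not called (-0.30). Mir21a, which is induced in injured and growing tissue, had 133.2 and 495.7 CPM and was called at 2.02. Mir214, at 39.96 and 10.16 CPM, was the gene called toward replicate 1 (-1.84). Differences of these ratios from those of Mir143 and Mir145a were not tested. In the same list 6 genes had no count in either library. The list holds numbered copies of Mir1a, Mir133a and Mir199a, whose reads can be placed at several loci, so their counts do not show that these muscle and fibroblast RNAs were missing.

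Blood held in vessels was represented by 7 listed genes. All were matched, 2 of them through synonyms (Mir486a as Mir486 and Mir486b as Mir3107), and 4 were tested. The exact binomial test called 0 at a ratio of 2 and 1 at a ratio of 1.5, toward replicate 2, against the shares of detected genes given above. Mir150, a lymphocyte miRNA, had 837.3 and 1207 CPM and a log2 ratio of 0.65. The red cell gene Mir486 had 10.84 and 9.591 CPM, and Mir223 of myeloid cells had 6.998 and 6.299 CPM, with log2 ratios of -0.06 and -0.03. Mir451a, also of red cells, had 1.806 and 10.74 CPM. It missed the minimum in replicate 1, so its higher level in replicate 2 was not tested. By these counts the listed blood genes other than Mir150 were at 10.84 CPM or less, far below Mir126a and Mir143. Reads that matched several loci entered no count, and Mir486 and Mir3107 are listed as copies of 1 miRNA. Their counts may therefore understate that RNA, and the amount of blood was not tested.

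**Figure D5:**
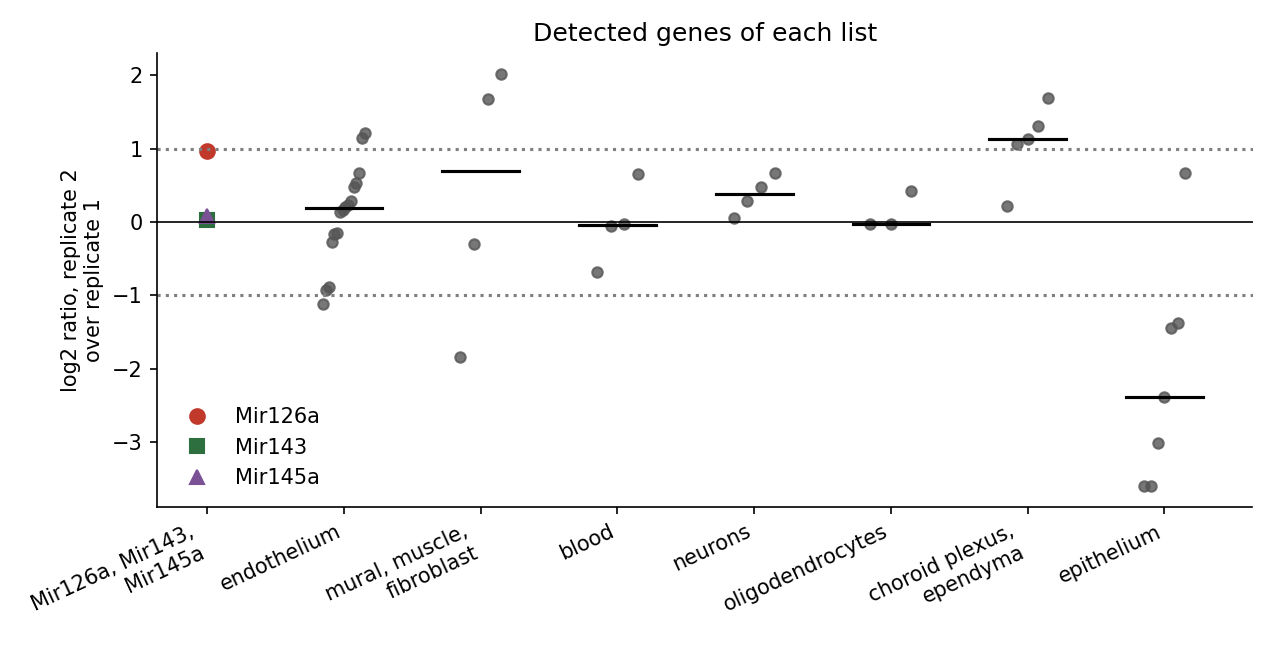
Log2 ratio of replicate 2 over replicate 1 for Mir126a, Mir143 and Mir145a and for the detected genes of each list, with 1 point per gene, a bar at each list's median and dotted lines at a ratio of 2 in either direction. The epithelium list lies lowest, with a median of -2.39, the choroid plexus and ependyma list lies highest, with a median of 1.13, and Mir126a lies just under the upper dotted line.

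The genes nearest to Mir126a in level over the 2 libraries, by Euclidean distance in log2(CPM + 1), were Mir26b (1678 and 3215 CPM, distance 0.129), Mir411 (1320 and 2510 CPM, 0.390) and Mir31 (1257 and 2658 CPM, 0.412). Each was higher in replicate 2. Nearest to Mir143 were Mir409 (2521 and 2410 CPM, 0.292), Mir338 (2638 and 2366 CPM, 0.320) and Mir7b (1734 and 2190 CPM, 0.364). With 2 libraries, this likeness describes a pair of values and nothing further.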

How the data were processed

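Per library, the authors deposited a table of unscaled read counts with 3 columns (either strand, sense and opposite strand). The mm10 assembly and M21 annotation are named in the deposited readme text. The aligner and counter were not given in the sources used here. The 4 summary lines at the top of each table were left out. Unmapped reads were 17.0% and 11.1% of reads, and uniquely placed reads outside genes 3.67% and 2.81%. All 2202 identifiers matched GENCODE M21, and listed symbols it lacks were matched through RefSeq synonyms (GRCm38.p6).

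Of the stranded columns, the one next to the either-strand column was taken as sense in both libraries. Its counts were scaled to CPM of all gene lines. TMM factors (edgeR 4.0.16) were computed on detected genes. The exact binomial test (scipy 1.17.1) was used because a quasi-likelihood test needs replicates on each side. It was tried on simulated counts that held counting error only, so that trial does not cover other differences between libraries. Log2 ratios add 0.5 to each count. Alternatives were library totals, DESeq2 1.42.0 size factors, no filter, the either-strand column, a ratio of 1.5, the deeper library thinned and a GC trend removed. Named genes were the 5 genes, the 3 highest of each vascular list, overlapping and neighbouring genes and the 3 genes nearest in level, with further list genes named after their values were seen. The genes and lists were chosen with earlier results of these data known.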

Additional observations from a re-analysis of the deposited data

How the results depend on the processing

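The count of the 5 genes called different between the libraries, 0 as reported, was 1 with DESeq2 size factors (17.8% of genes tested called), 1 with no filter on low counts (11.4%) and 1 at a ratio of 1.5 (39.0%), the gene being Mir126a each time. It was 0 under the other 4 alternatives. For the either-strand column this covers 2 genes tested, without Mir126a, which was not detected there. The either-strand column moved the share of the 5 genes to 0.271% and the Mir126a to Mir143 ratio to 0.0012 from a mean of 1.08, since it leaves Mir126a almost no counts. Without either replicate the share ran from 0.429% to 0.543%, that ratio from 0.741 to 1.43 and the Mir143 to Mir145a ratio from 4.94 to 5.15. The log2 ratio of Mir143 changed sign with library totals (-0.10) and with the deeper library thinned (-0.03), and that of Mir145a with library totals (-0.04) and with the GC trend removed (-0.07); none of these was a call. The log2 ratio of Mir126a was 0.84 with library totals, 0.94 with the deeper library thinned and 0.70 with the GC trend removed. With genes matched by symbol alone, an alternative chosen after seeing the data, the endothelium list had 2 calls in place of 3, without Mir497, and the blood list 0 as before, while red blood cell markers summed to 2.483 and 10.74 CPM. No paired analysis was possible because there is 1 group. With 2 libraries, the SD rests on 1 difference, and counting intervals do not cover differences between animals or preparations.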
